A study of Mus musculus with 18 samples.

Results

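Wnt ligands are secreted lipid-modified glycoproteins that signal between neighbouring cells. This account follows 10 of them, Wnt1, Wnt2, Wnt4, Wnt5a, Wnt5b, Wnt6, Wnt9a, Wnt10a, Wnt10b and Wnt11, among the 20207 genes listed for each library, and asks whether the rise of Wnt1 under heat shock (HS) was shared by the others. The 10 were chosen by name, with Wnt1 picked because its level rose under HS in these same libraries. Every comparison of Wnt1 that involves the HS libraries, or the control libraries they were set against, is therefore given as a description, with no test. The other 9 entered by name, with earlier results of these data known, and were tested together with all genes. Counts of calls among them are therefore not free of that choice. A further 9 ligand genes were listed in the files, which makes 19 in all.

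The libraries came from NIH3T3 cells, an established mouse embryonic fibroblast line, and all of them stably expressed DD-sfGFP, a destabilizing domain fused to superfolder GFP. Per the study the cells had been sorted for high expression of the fusion. The ligand S1 that keeps it folded was present in the control cells and in the stressed cells. There were 6 groups of 3 libraries each: unstressed control at 0 min, HS at 45 and 135 min, and tunicamycin (Tu), an inhibitor of N-glycosylation in the endoplasmic reticulum (ER), at 45, 135 and 405 min. The labels do not say whether replicates were separate cultures, so p-values measure the spread between libraries, which may be technical.

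Wnt proteins receive a palmitoleate from Porcn in the ER, are carried to the cell surface, and bind Frizzled receptors with the coreceptors Lrp5 and Lrp6. Wnt1, the founding member of the family, is best known from midbrain development and mammary tumours, and signals through beta-catenin and the Tcf and Lef transcription factors. Wnt5a and Wnt11 are mostly associated with signalling that does not use beta-catenin. Secreted inhibitors of the Dkk and Sfrp families limit the signal, and R-spondins strengthen it. Since Wnt proteins are glycosylated in the ER, tunicamycin acts on the compartment through which they are made.

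Between 33415592 and 66478268 reads fell on genes in each library, so that 3 reads equalled 0.0397 to 0.0821 CPM (read counts scaled to library size, with composition adjusted by TMM). The fibroblast markers Col1a1, Col1a2, Col3a1, Vim, Fn1, Pdgfrb and Thy1 lay between 10.2 and 4100 RPKM, which also divides by gene length, in all libraries. The epithelial marker Epcam and the haematopoietic marker Ptprc were at 0 RPKM in the control libraries, and of the 12 markers of other cell types measured only Tubb3 and Cd68 passed 0.24 RPKM in any library. In these bulk samples, fewer cells that express a gene and less of its RNA per cell cannot be told apart. The labelled stresses were checked on known genes. At 135 min of HS the chaperone gene Hspa1b, whose reads may be split with its near-identical copy Hspa1a, rose from 5.75 ± 0.466 to 873 ± 530 CPM (SD, n = 3; edgeR quasi-likelihood test, adjusted p = 0.0058). At 45 min of HS it stood at 183 ± 122 CPM and was not called (adjusted p = 0.192), where 0% of all genes were. At 405 min of Tu the ER chaperone gene Hspa5 rose from 692 ± 40.4 to 9010 ± 252 CPM (SD, n = 3, adjusted p = 4.64e-06). At 45 and 135 min of Tu it was not called, at 935 ± 17.2 and 415 ± 79.1 CPM (adjusted p = 0.0709 and 0.135). It also rose at 135 min of HS, to 1340 ± 73.8 CPM (adjusted p = 0.0312). Ddit3, a known ER stress gene, was called at 45 min of Tu and 135 min of HS (adjusted p = 0.000836 and 0.0122). Its largest rise was at 405 min of Tu, from 71.9 ± 2.29 to 2630 ± 402 CPM (SD, n = 3, adjusted p = 2.45e-06). It was not called at 135 min of Tu (adjusted p = 0.0706) or 45 min of HS (adjusted p = 0.227). Replicates were not alike in every group. Correlations of log2 CPM between replicates fell to 0.935, and Hspa1b stood at 46 CPM in HS 45 min replicate 3 and 263 CPM in HS 135 min replicate 1, the lowest of their groups. The heat-induced chaperone gene Hsph1 went otherwise. It stood at 499 CPM in HS 45 min replicate 3, above replicate 2 at 292 CPM. In HS 135 min replicate 1 it was the highest of its group, at 2720 CPM.

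The letters upstream of the gene starts are shown because Wnt1 and its neighbour Wnt10b lie head to head on chromosome 15 and only Wnt1 was many times higher in the HS libraries. Heat shock factor is known to bind repeats of the triplet GAA and its reverse complement TTC, and Hspa1b is given beside them as a gene with many. Each line holds the 250 bases before the gene start from RefSeq (build GRCm38.p6), 5′ to 3′ along the gene, with GAA and TTC in capitals.

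Wnt1, chr15:98789607-98789856, plus strand: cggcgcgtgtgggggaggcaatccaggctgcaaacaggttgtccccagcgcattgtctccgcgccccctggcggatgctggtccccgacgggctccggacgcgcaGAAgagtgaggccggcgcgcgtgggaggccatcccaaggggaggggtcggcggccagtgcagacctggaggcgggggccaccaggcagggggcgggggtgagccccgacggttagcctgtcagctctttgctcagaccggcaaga

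Wnt10b, chr15:98778151-98778400, minus strand: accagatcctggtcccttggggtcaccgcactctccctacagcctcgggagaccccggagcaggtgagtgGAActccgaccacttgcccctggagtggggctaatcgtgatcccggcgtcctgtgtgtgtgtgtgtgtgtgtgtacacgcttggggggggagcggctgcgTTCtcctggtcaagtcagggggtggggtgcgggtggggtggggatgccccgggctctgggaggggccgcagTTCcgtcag

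Hspa1b, chr17:34959239-34959488, minus strand: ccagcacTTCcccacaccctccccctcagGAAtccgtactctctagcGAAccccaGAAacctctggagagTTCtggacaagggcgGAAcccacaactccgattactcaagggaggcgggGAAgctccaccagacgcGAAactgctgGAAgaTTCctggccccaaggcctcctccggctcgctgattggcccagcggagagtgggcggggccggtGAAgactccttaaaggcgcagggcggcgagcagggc

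The Wnt1 stretch held 1 triplet, the Wnt10b stretch 3 and the Hspa1b stretch 11, and the median over all RefSeq promoters was 8. These stretches are 71.6%, 66.8% and 63.6% G and C, beside a median of 52.4%. The part of base composition in the triplet counts was not tested. A pair of units facing each other, GAANNTTC, was present in 9.04% of 27025 genes' RefSeq promoters of 300 bases, and TTCNNGAA in 9.6% (both read the same on either strand). Neither was present in the Wnt1, Wnt9a, Wnt10b or Wnt11 windows, and Hspa1b held GAANNTTC at position -104 from its start. In the 2000 bases upstream on mm9, the build of the files, Wnt1 held 1 GAANNTTC, at position -643 (chr15:98619645-98619652, shown in capitals in cttcgttaGAAGTTTCtggataca). Windows of that length held this motif in 42.6% of 22371 genes. In theirs, Wnt6 held 2 and Wnt2, Wnt5b and Wnt11 held 1 each, and the remaining listed ligands held none. Hspa1b held 2 and the heat-induced Hsph1 held none. A match is a description of letters only.

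Wnt1 (mm9 chr15:98620288-98624261) was close to absent from unstressed cells and rose with time under HS. The control libraries held 1, 4 and 1 Wnt1 reads. At 45 min of HS there were 33, 24 and 14 reads, and at 135 min there were 118, 180 and 230. All HS libraries lay above all control libraries, and all 135 min libraries above all 45 min libraries. In CPM the means were 0.0398 ± 0.0274 in control, 0.452 ± 0.222 at 45 min and 3.3 ± 1.24 at 135 min (SD, n = 3).

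The fitted log2 difference of Wnt1 from control was 3.33 (SE 0.657) at 45 min of HS and 6.20 (SE 0.57) at 135 min. From summed reads scaled for depth, the level at 135 min was 74.3 times that of control (95% interval 33.9 to 203, counting error only), since the control group held 6 reads in all. The level at 135 min was 7.52 times that at 45 min (95% interval 5.86 to 9.78). These intervals leave out the spread between libraries and are not tests. The Wnt1 transcript is 60.7% G and C, against a median of 50.6% over genes tested, and an offset for GC content took the 45 min difference to 2.58. The part of GC content in the difference was not tested further. The lowest Wnt1 values of the HS groups were in the libraries where Hspa1b was lowest, 0.203 CPM in HS 45 min replicate 3 and 1.87 CPM in HS 135 min replicate 1. Hsph1 was not the lowest of its group in either of those libraries. Without those libraries the log2 differences were 3.68 and 6.48. Without control replicate 2, which held 4 of the 6 control reads, they were 4.09 and 6.96.

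**Figure D1:**
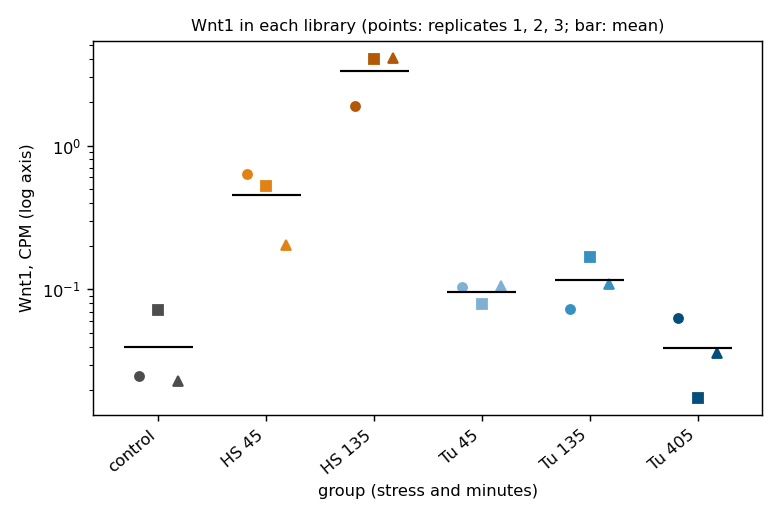
Wnt1 level in CPM (log axis) in each of 18 libraries by group, with the mean as a bar; circles, squares and triangles are replicates 1, 2 and 3. The HS 135 min libraries lie between 1.87 and 4.04 CPM and the control libraries between 0.0229 and 0.0714 CPM.

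Under Tu, Wnt1 stayed at a few reads. The libraries held 7, 6 and 5 reads at 45 min, 3, 9 and 4 at 135 min and 4, 1 and 2 at 405 min. The groups at 45 and 135 min lay above control in CPM without overlap, as did 17.2% and 13.7% of all genes, and the group at 405 min overlapped it. At 135 min the separation was narrow, 0.0726 CPM (3 reads) in replicate 1 against 0.0714 CPM (4 reads) in control replicate 2. The log2 differences were 1.14 (SE 0.532), 1.46 (SE 0.623) and -0.08 (SE 0.702), with no test since the control libraries entered the choice of Wnt1. Without control replicate 2 they were 1.91, 2.21 and 0.68. By summed reads, the 95% counting interval of the ratio to control was 0.837 to 6.78 at 45 min, 1.05 to 8.85 at 135 min and 0.267 to 3.34 at 405 min.

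Per length, the order of Wnt1 levels was HS 135 min at 1.02 ± 0.313 RPKM, HS 45 min at 0.139 ± 0.0587, Tu 135 min at 0.0414 ± 0.0185, Tu 45 min at 0.037 ± 0.00525, control at 0.0144 ± 0.0101 and Tu 405 min at 0.0135 ± 0.00831 (SD, n = 3). The 135 and 45 min Tu groups overlapped, as did control and Tu 405 min. Between the other neighbours in that order the libraries did not overlap. Further apart in the order, Tu 135 min overlapped control, with 0.0235 RPKM in its replicate 1 and 0.0261 in control replicate 2. Even at its highest, Wnt1 took 7.83% ± 2.44 (SD, n = 3) of the reads on the 10 ligands, up from 0.102% ± 0.0676 in control.

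Of the other 9 ligands, 5 had at least 1 read in each of the 18 libraries and were tested, and Wnt4, Wnt5b, Wnt6 and Wnt10a did not. At 45 min of HS, 0 of the 5 passed the edgeR test, where 0% of all 12731 genes did. The count was 1 at an unadjusted p under 0.05, beside 19.5% of all genes, and 1 (Wnt9a) by DESeq2, beside 3.54%. At 135 min of HS, 0 of the 5 passed, beside 7.39% of all genes. The count was 1 at an unadjusted p under 0.05 and 0 by DESeq2, beside 29.7% and 17% of all genes. The median log2 difference of the 5 was 0.616 at 45 min and 0.505 at 135 min, beside -0.0319 and -0.02 over all genes. Wnt9a and Wnt11 had values above control in every HS library at 45 min, and Wnt11 also at 135 min. Such separation upward was seen in 12.5% of all genes at 45 min and 18.1% at 135 min.

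**Figure D2:**
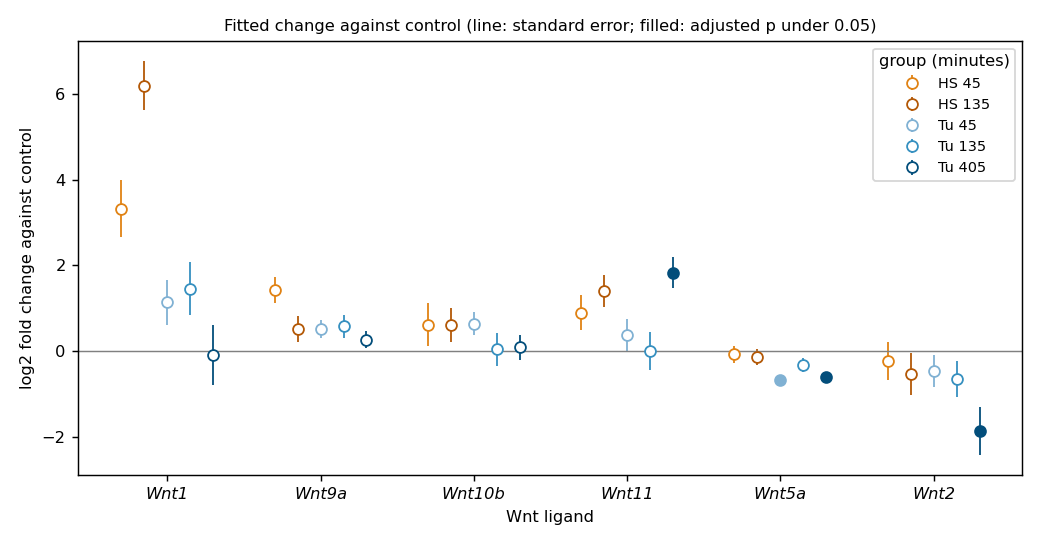
Fitted log2 fold change against control for the 6 ligands with reads in every library, one colour per group, with the standard error as a line. Filled points have an adjusted p under 0.05 (Wnt11, Wnt5a and Wnt2 in Tu groups), and the open Wnt1 points, with HS values of 3.33 and 6.20, were not tested.

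Wnt9a (mm9 chr11:59120432-59147054), a ligand with known roles in joint formation, was the member nearest to Wnt1 in the size of its difference at 45 min. Control libraries held 227, 239 and 164 reads, and HS 45 min libraries held 571, 731 and 693. The level was 12.3 ± 3.16 CPM against 4.57 ± 1.01 in control (SD, n = 3), a log2 difference of 1.43 (SE 0.306, edgeR adjusted p = 0.227). This result depended on the libraries and on the fit. Without HS 45 min replicate 3 the log2 difference was 1.55 and the adjusted p was 0.00483. In a fit of all 6 groups together the adjusted p was 0.00661. Those fits called 45.4% and 10.6% of all genes. By 135 min the libraries held 349, 387 and 306 reads, with a mean of 6.49 ± 1.81 CPM that overlapped control (log2 difference 0.51, SE 0.305, adjusted p = 0.296). Wnt9a was thus highest in the earlier HS group, whereas Wnt1 was highest in the later one. The log2 difference between the HS times, a comparison added after the data were seen, was -0.97 (SE 0.309, adjusted p = 0.318) for Wnt9a and 2.82 (SE 0.545) for Wnt1.

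Wnt11 (mm9 chr7:105987355-106003257), known from kidney branching and gastrulation movements, was low everywhere. It held 3, 5 and 5 reads in control, 10, 9 and 10 at 45 min of HS and 14, 12 and 15 at 135 min. The means were 0.093 ± 0.0198, 0.177 ± 0.0279 and 0.25 ± 0.0251 CPM (SD, n = 3). The log2 differences from control were 0.90 (SE 0.403, adjusted p = 0.26) and 1.40 (SE 0.378, adjusted p = 0.0602). At 135 min the call depended on the libraries and on the fit. The adjusted p was 0.0484 without HS 135 min replicate 1 and 0.00864 in a fit of all 6 groups together. Those fits called 19.4% and 25.5% of all genes.

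Wnt10b (mm9 chr15:98602193-98608581), a ligand known for holding back fat cell formation, has its start separated from that of Wnt1 by 11706 bases and is read in the opposite direction. It held 32, 26 and 24 reads in control, 43, 70 and 31 at 45 min of HS and 38, 59 and 49 at 135 min. The HS groups overlapped control, with log2 differences of 0.62 (SE 0.496, adjusted p = 0.432) and 0.61 (SE 0.391, adjusted p = 0.322). On the other side of Wnt1, Ddn, which encodes the postsynaptic protein dendrin, had log2 differences of 0.87 (SE 0.459, adjusted p = 0.291) and 1.21 (SE 0.458, adjusted p = 0.13). Neither neighbour passed the test at 135 min, where the log2 difference of Wnt1 was 6.20.

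Wnt5a and Wnt2 had mean levels below control in both HS groups. Wnt5a held most of the ligand reads, 85.3% ± 2.8 in control (SD, n = 3), and its level was 33 ± 1.39 CPM in control, 31.5 ± 3.33 at 45 min and 30.1 ± 1.5 at 135 min of HS. The log2 differences were -0.07 (SE 0.199, adjusted p = 0.838) and -0.13 (SE 0.189, adjusted p = 0.66). With an offset for GC content the Wnt5a differences turned positive, at 0.32 and 0.14, and neither passed the test. Wnt2 had 38 reads over the control group, 40 at 45 min and 31 at 135 min of HS, with log2 differences of -0.23 (SE 0.448, adjusted p = 0.746) and -0.53 (SE 0.491, adjusted p = 0.494). The Wnt5a libraries at 135 min all lay below those of control, a separation downward that 19% of all genes showed. For Wnt5a, 2 standard errors about the 135 min difference reached from -0.51 to 0.24, which leaves out a difference as large as that of Wnt1.

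**Figure D3:**
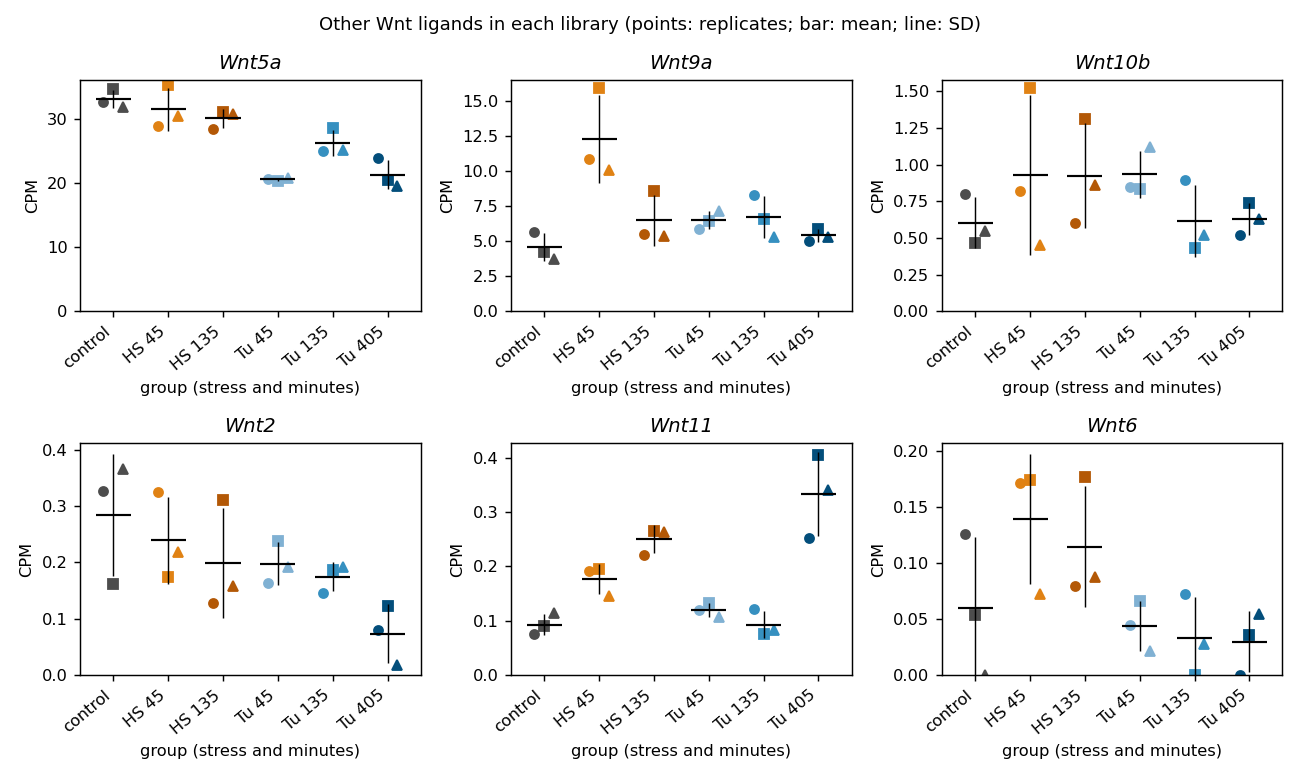
CPM of Wnt5a, Wnt9a, Wnt10b, Wnt2, Wnt11 and Wnt6 in each library by group; the bar is the mean, the line the SD and the symbols the replicates. Wnt9a peaks at 12.3 CPM in the HS 45 min group, and Wnt11 at 0.333 CPM in the Tu 405 min group.

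The 4 ligands below the filter were near the floor in all groups. Wnt6, the neighbour of Wnt10a on chromosome 1, had 8 reads over the control group, 22 at 45 min and 18 at 135 min of HS. Its level at 45 min was 2.3 times that of control, with a 95% counting interval of 0.985 to 5.96 that includes no change. Wnt4, Wnt5b and Wnt10a held at most 3 reads in any library, and Wnt4 and Wnt5b were at 0 in 10 of the 18. When the filter was lifted, none of the 4 passed the edgeR test in any comparison. The Wnt6 level at 135 min of HS was 1.9 times that of control, with a 95% counting interval of 0.786 to 5.05. A rise to the read counts of Wnt1 under HS was not seen in any of the 4. A small change in them was not detectable at this depth.

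Among the 9 ligand genes outside the list, Wnt2b was the one with reads in every library, and it is named here after its values were seen. It held 15, 28 and 20 reads in control, 21, 14 and 35 at 45 min of HS and 82, 60 and 71 at 135 min. Its level at 135 min was 1.29 ± 0.0408 CPM against 0.445 ± 0.0627 in control (SD, n = 3), a log2 difference of 1.53 (SE 0.281, edgeR adjusted p = 0.0242). At that time 7.39% of all genes were called and 18.1% were separated upward, as Wnt2b was. Whether this call depended on the libraries or the fit was not examined. Against Tu at 135 min its log2 difference was 1.41 (SE 0.284, adjusted p = 0.0583). Under Tu it was not called against control (adjusted p = 0.43, 0.889 and 0.445 by time). The remaining 8 held at most 6 reads in any library, and Wnt9b had none in all 18.

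Under Tu, the same 5 listed ligands were tested against the same control libraries. At 45 min, 1 of the 5 passed the edgeR test, beside 6.17% of all genes. Wnt5a fell from 33 ± 1.39 to 20.6 ± 0.268 CPM (SD, n = 3; log2 difference -0.67, SE 0.12, adjusted p = 0.0228), and its Tu libraries all lay below the control libraries, as for 16% of all genes. That call was lost when any of 5 of the 6 libraries was left out, with adjusted p-values of up to 0.166, while the difference stayed between -0.63 and -0.69 in those fits. At 135 min, 0 of 5 passed, beside 0.134% of all genes. The count was 0 at an unadjusted p under 0.05 and 0 by DESeq2, beside 18.6% and 5.02% of all genes.

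At 405 min of Tu, 3 of 5 ligands passed, beside 46.8% of all genes. Wnt11 rose to 16, 23 and 19 reads, or 0.333 ± 0.077 CPM (SD, n = 3; log2 difference 1.83, SE 0.362, adjusted p = 0.00416). Wnt5a was lower, at 21.3 ± 2.3 CPM (log2 difference -0.61, SE 0.128, adjusted p = 0.0055). Wnt2 fell to 5, 7 and 1 reads from 13, 9 and 16 (log2 difference -1.86, SE 0.564, adjusted p = 0.0265), and this call was lost without control replicate 3, Tu 405 min replicate 1 or Tu 405 min replicate 3, with adjusted p-values of 0.0742, 0.0777 and 0.0718. Wnt9a and Wnt10b overlapped control at this time. The Wnt11 call remained when each library was left out in turn, with adjusted p-values of 0.00486 to 0.0206. From 135 to 405 min of Tu, a comparison added after the data were seen, Wnt11 was again called (log2 difference 1.81, SE 0.369, adjusted p = 0.00623), beside 43.7% of all genes.

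Wnt1 differed between the stresses at matched times, by description, with log2 differences of 2.20 (SE 0.497) at 45 min and 4.72 (SE 0.494) at 135 min, HS minus Tu. Of the 5 other tested ligands, 0 passed the edgeR test of HS against Tu at 45 min, beside 0.204% of all genes. The count was 2 at an unadjusted p under 0.05 and 2 by DESeq2, both for Wnt9a (log2 difference 0.92, SE 0.244, adjusted p = 0.135) and Wnt5a (0.61, SE 0.165, adjusted p = 0.136). Over all genes these shares were 24% and 8.85%. At 135 min 0 of 5 passed, beside 2.12% of all genes, with 1 at an unadjusted p under 0.05 and 0 by DESeq2, beside 20% and 9.87% of all genes. The largest log2 difference of the 5 there was that of Wnt11, 1.39 (SE 0.36, adjusted p = 0.0944).

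The 5 genes whose profile over the 18 libraries was most like that of Wnt1, among 11613 genes with a mean of at least 20 reads, were Dnaja4 (Pearson r of 0.965), Esr1 (0.956), Taok3 (0.955), Clu (0.953) and Mns1 (0.943). These correlations of log2 CPM are descriptive, and all genes share the same libraries. Dnaja4, which encodes an Hsp40 cochaperone, went from 5.38 CPM in control to 21.5 at 45 min and 160 at 135 min of HS. Clu, which encodes the secreted chaperone clusterin, went from 2.41 to 6.98 and 78 CPM. Esr1, the oestrogen receptor gene, went from 0.216 to 0.608 and 1.53 CPM. Among ligands with enough reads, Wnt5a, Wnt9a and Wnt10b had r of 0.413, 0.358 and 0.374 with Wnt1, Wnt2b had 0.758, and Hspa1b had 0.918.

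The other genes of the pathway were taken from lists of 92 genes, of which 73 were tested. At 45 min of HS 0 passed, with 26 at an unadjusted p under 0.05, where 2480 of all 12731 genes were. At 135 min of HS 5 were higher and 2 lower, beside 4.75% and 2.64% of all genes. Among feedback and target genes 4 of 12 rose: Dact1 from 4.58 ± 0.574 to 15 ± 3.6 CPM, Myc from 184 ± 19.5 to 500 ± 133 CPM and Wisp1 from 83.2 ± 22.2 to 224 ± 44.1 CPM (SD, n = 3), together with Prickle1. Their log2 differences were 1.71, 1.44, 1.43 and 1.25, with adjusted p-values of 0.0199, 0.021, 0.024 and 0.0358. The rest of the 12 were not called. They ran from -1.38 for Bambi (adjusted p = 0.0649) to 0.81 for Axin2 (adjusted p = 0.404). Whether Wnt1 had a part in these differences was not tested. Dact1 encodes a Dishevelled-binding protein, and Myc a growth regulator that is also a known immediate target of other signals.

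Among receptors at 135 min of HS, the coreceptor gene Lrp6 rose from 111 ± 18 to 233 ± 24.9 CPM (adjusted p = 0.0266) and the Frizzled gene Fzd6 fell from 7.91 ± 2.07 to 1.47 ± 0.573 CPM (SD, n = 3; adjusted p = 0.0199). The secreted inhibitor gene Dkk2 fell from 14.8 ± 0.991 to 7.23 ± 0.693 CPM (adjusted p = 0.0375). None of the 8 secretion genes, 20 intracellular pathway genes or 6 transcription factors passed. Of them 4, 5 and 1 had an unadjusted p under 0.05, beside 29.7% of all genes. Fzd6 was also lower in HS than in Tu at 135 min (log2 difference -2.64, SE 0.435, adjusted p = 0.0404). It was the 1 pathway gene of 73 called there, beside 2.12% of all genes.

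Under Tu at 45 min 5 pathway genes were higher and 4 lower, beside 4.01% and 2.17% of all genes. Myc rose to 657 ± 61.2 CPM (log2 difference 1.85, adjusted p = 0.00122), and Lgr6, a receptor for R-spondins, and Dact1 rose by 1.25 and 1.07 on the log2 scale (adjusted p = 0.0118 and 0.0293). Fzd4 and Wisp1 also rose, by 0.94 and 0.91 (adjusted p = 0.0125 and 0.0388). The secreted inhibitor genes Sfrp2 and Sfrp1 differed by -0.94 and -0.74 (adjusted p = 0.0309 and 0.023), and the cargo receptor gene Tmed5 by -0.83 (adjusted p = 0.047). All comparisons with control share the same 3 control libraries. At 135 min of Tu 0 of the 73 passed, beside 0.134% of all genes. There were 17 at an unadjusted p under 0.05, beside 18.6% of all genes.

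At 405 min of Tu 9 of the 73 pathway genes were higher and 26 lower, beside 23.3% and 23.5% of all genes. All 4 called of the 5 tested secreted inhibitors fell, including Dkk3 from 32.1 ± 4.38 to 2.84 ± 0.266 CPM (SD, n = 3; log2 difference -3.47, adjusted p = 1.01e-05) and Sfrp1 to 4.08 ± 0.303 CPM (log2 difference -2.46, adjusted p = 1.58e-05). The receptor gene Ror1, a receptor for Wnt5a, fell to 1.13 ± 0.0309 CPM (log2 difference -2.10, adjusted p = 5.58e-05). Of the 8 secretion genes 4 rose and 1 fell, with Tmed2, a cargo receptor of the early secretory pathway, at 383 ± 15.9 CPM against 113 ± 35.9 (adjusted p = 0.00056). Rspo2 rose by 2.52 on the log2 scale (adjusted p = 0.00085) from a low level of 0.159 ± 0.0433 CPM, and Myc by 2.26 (adjusted p = 2.31e-05). The median log2 difference over the 73 was -0.254, beside -0.0121 over all genes.

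**Figure D4:**
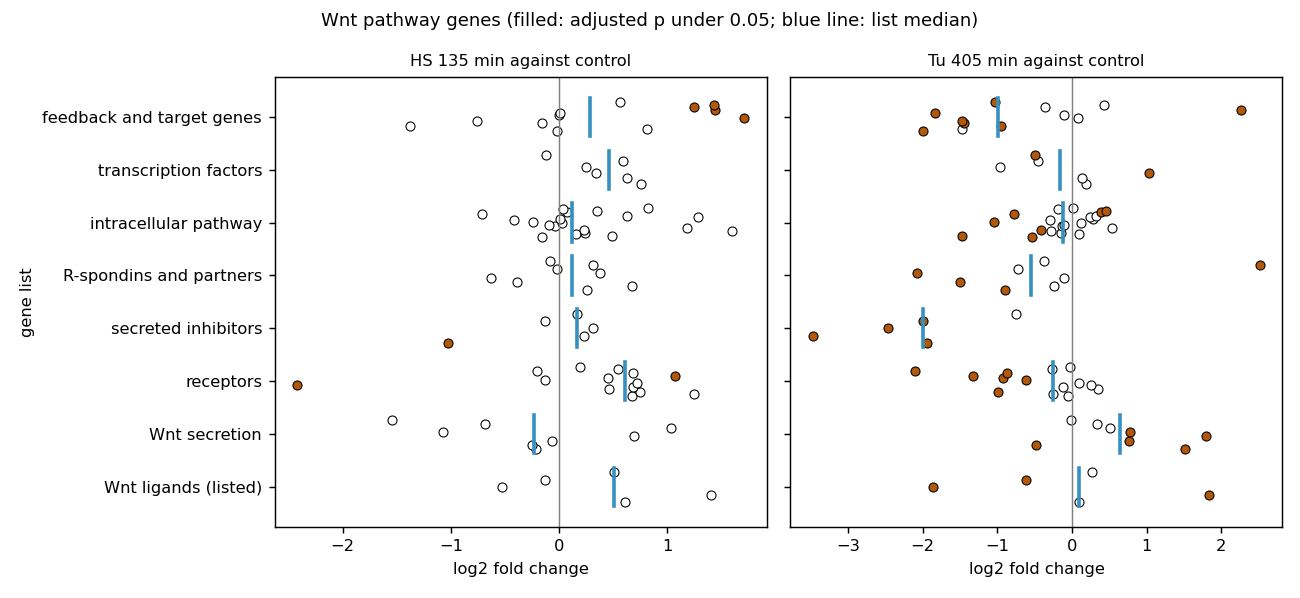
Log2 fold change of each tested gene of the Wnt pathway lists at HS 135 min (left) and Tu 405 min (right) against control; filled points have an adjusted p under 0.05 and the blue line is the list median. Wnt1 is left out; the secreted inhibitors lie at a median of -1.99 on the right.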

How the data were processed

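Poly(A) RNA was sequenced by the authors, who used the DNAnexus platform for alignment to mm9 and for counts per RefSeq gene. The study names both a modified Illumina library protocol and a NuGEN Encore kit, without saying which libraries had which. Whether the preparation differed between libraries or groups is therefore not known. The aligner is not given in the sources used here. The authors deposited 1 table per library with an estimated count per gene, not normalized, and an RPKM value scaled for gene length and library total. Deposited standardized RPKM columns were not used. Counts were rounded. Each comparison of 3 against 3 libraries was fitted with edgeR 4.0.16 in R 4.3.3 (TMM, quasi-likelihood test) over 12731 genes, each detected by 1 or more reads in all 18 libraries, with Benjamini-Hochberg adjustment and a threshold of 0.05. The standard error is the log2 difference divided by the root of F. The script was tested on simulated data. Alternatives used DESeq2 1.42.0, other filters, scalings and designs, and transcript GC from the mm9 annotation, found for 96.6% of genes. Intervals of read ratios are exact, pool the reads of each group, cover counting error only and are not tests. RefSeq promoters were searched on GRCm38.p6.

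Members and lists were chosen with earlier results of these data known. Tests of Wnt1 against control under Tu had been planned and are not reported, since the control libraries entered its choice. Named pathway genes are up to 3 largest rises and falls called per comparison without overlap of the groups; Prickle1 and Lrp6 were named after their values were seen. The labels give replicate numbers but no pairing. For Tu 135 min against control, deviations of same-numbered libraries correlated at 0.207 to 0.295. Replicate 1 stood apart in both groups. Its correlations with the others were 0.978 and 0.979 in control and 0.972 and 0.971 in Tu 135 min. Those between replicates 2 and 3 were 0.996 and 0.994. Pairing and a shared odd replicate cannot be told apart here. With the replicate number as a block, 0 of 5 ligands and 0 of all genes were called for Tu 135 min against control.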

Additional observations from a re-analysis of the deposited data

How the results depend on the processing

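Of 799 recomputed log2 differences, 722 kept their place, 19 gained a call, 12 lost one, 8 untested Wnt1 values moved by more than their standard error and 38 changed sign at 2 decimals, 21 of them with a library left out. None of the tested values that changed sign passed the threshold. Against control, the GC offset, alone and with the replicate block, took Wnt5a to 0.32 and 0.29 at 45 min and 0.14 and 0.11 at 135 min of HS, and Wnt10b to -0.20 and -0.21 at 135 min and -0.02 and -0.01 at 405 min of Tu. With offset and block Wnt10b was -0.03 at 45 min of HS. For Wnt10b, HS against Tu at 45 min was 0.03 with DESeq2 size factors and 0.03 by DESeq2, HS 135 against 45 min was 0.03, 0.17 and 0.21 with the block, the offset and both, and Tu 405 against 135 min was -0.03 with total counts. Total counts took Wnt2, HS against Tu, to -0.01 at 45 min and -0.06 at 135 min. With a library left out, Wnt10b ran from -0.31 to 0.29 (Tu 135 min against control), -0.10 to 0.35 (Tu 405 min against control), -0.56 to 0.33 (HS against Tu, 45 min), -0.41 to 0.49 (HS times) and -0.20 to 0.40 (Tu 405 against 135 min). Wnt1 at 405 min of Tu ran from -0.63 to 0.68, Wnt2 in HS against Tu from -0.01 to 0.44 at 45 min and -0.29 to 0.36 at 135 min, and Wnt9a in HS against Tu at 135 min from -0.30 to 0.08. The number of ligands called moved as follows. For HS 45 min against control it was 0, and 1 (Wnt9a) by DESeq2 and in a fit of 6 groups (range 0 to 1 with a library left out). For HS 135 min against control it was 0, and 1 (Wnt11) in the fit of 6 groups (0 to 1 with a library left out). For Tu 45 min against control it was 1, and 0 with the replicate block and with a GC offset and that block (0 to 3 with a library left out, 3 without control replicate 1). For HS 45 min against Tu 45 min it was 0, and 2 by DESeq2 and in the fit of 6 groups (0 to 2, with 2 without HS 45 min replicate 3). For HS 135 min against Tu 135 min it was 0, and 1 (Wnt11) in the fit of 6 groups and with a GC offset. For HS 135 min against HS 45 min it was 0, and 1 (Wnt9a) in the fit of 6 groups. For Tu 405 min against Tu 135 min it was 1 (1 to 3 with a library left out, 3 without Tu 135 min replicate 1). The Wnt1 difference at 45 min of HS was 2.58 with a GC offset and 2.59 with that offset and the replicate block, and 3.01 to 4.09 with a library left out. At 135 min it was 5.95 to 6.96. The cause of these shifts was not tested.

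Counts over all genes moved more. They ran over the alternatives from 0 to 1345 for HS 45 min (reported 0; 5786 without replicate 3), 0 to 3243 for HS 135 min (reported 941; 11 to 2467 with a library left out), 21 to 1962 for Tu 45 min (reported 786; 58 to 2499), 0 to 639 for Tu 135 min (reported 17; 0 to 61) and 4057 to 6707 for Tu 405 min (reported 5960; 4067 to 7897), all against control. For HS against Tu they ran from 0 to 1270 at 45 min (reported 26; 7087 without HS replicate 3) and 0 to 1771 at 135 min (reported 270; 0 to 364). For the added comparisons they ran from 0 to 905 between the HS times (reported 0) and 3750 to 6727 between Tu 405 and 135 min (reported 5566; 3547 to 8126). Scaling by total counts took the median of all genes from -0.0319 to -0.19 at 45 min of HS and changed the split of higher against lower calls from 605 and 336 to 498 and 426 at 135 min of HS, from 510 and 276 to 878 and 180 at 45 min of Tu, from 8 and 18 to 21 and 95 for HS against Tu at 45 min, and from 166 and 104 to 209 and 275 at 135 min. Outside Tu 135 min against control, deviations of libraries that shared a replicate number correlated at -0.774 to 0.368. The block took Wnt2 at 405 min of Tu to an adjusted p of 0.0668, with 2 ligands still called. Wnt1 in control, at 1 to 4 reads, limits any fold against it.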
